A study of Mus musculus with 9 samples.

Results

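The genes described here are the cytosolic translation initiation and elongation factors of the mouse midbrain, which were chosen by name. They are the protein-coding genes whose symbol starts with Eif or Eef followed by a digit, without the Eif2ak genes, which encode kinases. The rule found 63 genes, 51 named for initiation and 12 for elongation, among 47729 rows of the count table. RNA was sequenced from the dissected ventral midbrain of 180-day-old mice on a C57/Bl6 background, with 3 libraries of each of 3 genotypes and each library made from a pool of 3 mice. The controls, Dot1l(+/+), carried Pitx3-Cre/+ and Rosa-lox-stop-lox-Yfp with both Dot1l alleles intact. The Dot1l(fl/+) mice carried the same Cre and Yfp alleles and 1 floxed Dot1l allele, and the Dot1l(fl/fl) mice carried them with 2 floxed alleles. Cre was made from the Pitx3 locus, which in the midbrain is active in dopamine neurons, so the floxed alleles could be cut only in a part of the cells of each piece of tissue, and the controls also carried Cre at 1 Pitx3 allele. The study asked how the loss of 1 or both copies of Dot1l, whose enzyme sets the H3K79 methyl mark on histones of transcribed genes, changes transcription in these mice.

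Initiation factors bring the initiator tRNA and the small ribosomal subunit to an mRNA. eIF2 carries the initiator tRNA, eIF2B recharges eIF2 with GTP, eIF3 is the large scaffold on the small subunit, and eIF4E, eIF4G and eIF4A bind the cap and unwind the leader of the mRNA. Elongation factors then drive each round of peptide growth: eEF1A delivers the aminoacyl-tRNA, the eEF1B complex recharges eEF1A, and eEF2 moves the ribosome along. Neurons control these steps closely, partly through phosphorylation of eIF2 and eEF2 and through the eIF4E-binding proteins, and they use eEF1A2 as a second form of eEF1A after birth.

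The libraries held 16422135 to 28403218 counts, of which the 63 genes took 0.791% to 0.841%. Dot1l itself was at 80.2 to 85.2 CPM (counts scaled to the size of the library) in the controls, 60.6 to 84.2 CPM in Dot1l(fl/+) and 73.9 to 82.9 CPM in Dot1l(fl/fl), so the ranges overlapped. Its counts cover all exons and not only the deleted part. The tissue is labelled as midbrain dopamine neurons, and none of the 8 dopamine neuron markers was at 0 in all libraries, but the 8 oligodendrocyte markers summed to 10190 to 11700 CPM and the dopamine markers to 284.5 to 462.1 CPM. The library numbered 1 in each genotype held counts of Y-linked genes, with Ddx3y at 117.7 to 126.3 CPM against at most 0.395 CPM in the other 6 libraries.

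The most abundant elongation factors were the carriers of tRNA and the translocase. Per kilobase of exon, Eef1a2 was at 319 ± 6.85 CPM per kb in the controls (SD, n = 3) and Eef1a1 at 222 ± 9.44. Eef2, which encodes the translocase, was at 1133 ± 33.3 CPM in the controls, which is 341 CPM per kb, and per kb at 347 ± 6.5 in Dot1l(fl/+) mice and 339 ± 13.6 in Dot1l(fl/fl) mice. Over the 9 libraries the levels of Eef2 and Eef1a2 overlapped, and both lay above every value of Eef1a1 as its reads were assigned. The pseudogene Gm13456 shares sequence with Eef1a1 and had 116.3 to 145.2 CPM, against 537.2 to 623.1 CPM for Eef1a1. The separation depends on how shared reads were divided, and on the length used. The summed exons of Eef1a1 came to 2493 bases and its longest coding transcript to 1794. The next elongation factors were Eef1b2 at 31.9 and Eef1g at 18.6 CPM per kb over all libraries, the catalytic alpha and the structural gamma subunit of eEF1B. Eef1g shares sequence with the pseudogene Gm4366, which had 50.3 to 63.2 CPM against 45.3 to 54.3 CPM for Eef1g. Its place in the order therefore depends on how shared reads were divided. Among the initiation factors Eif4a2, a helicase of the cap complex, came first at 97.5 CPM per kb, and Eif4g2, an eIF4G relative without an eIF4E site, came next at 82.9. Eif1b, a form of the start codon factor eIF1, was at 62.0, Eif4h, a helper of eIF4A, at 58.6, and Eif3c, a core subunit of eIF3, at 57.0 CPM per kb. This order holds for summed exons and depends on that length. For Eif4h these came to 5551 bases and the longest coding transcript to 2726, and for Eif1b to 1125 and 1035. The lowest of those tested were the eIF4E-binding protein genes Eif4ebp3 at 0.609 and Eif4ebp1 at 0.422 CPM per kb.

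**Figure D1:**
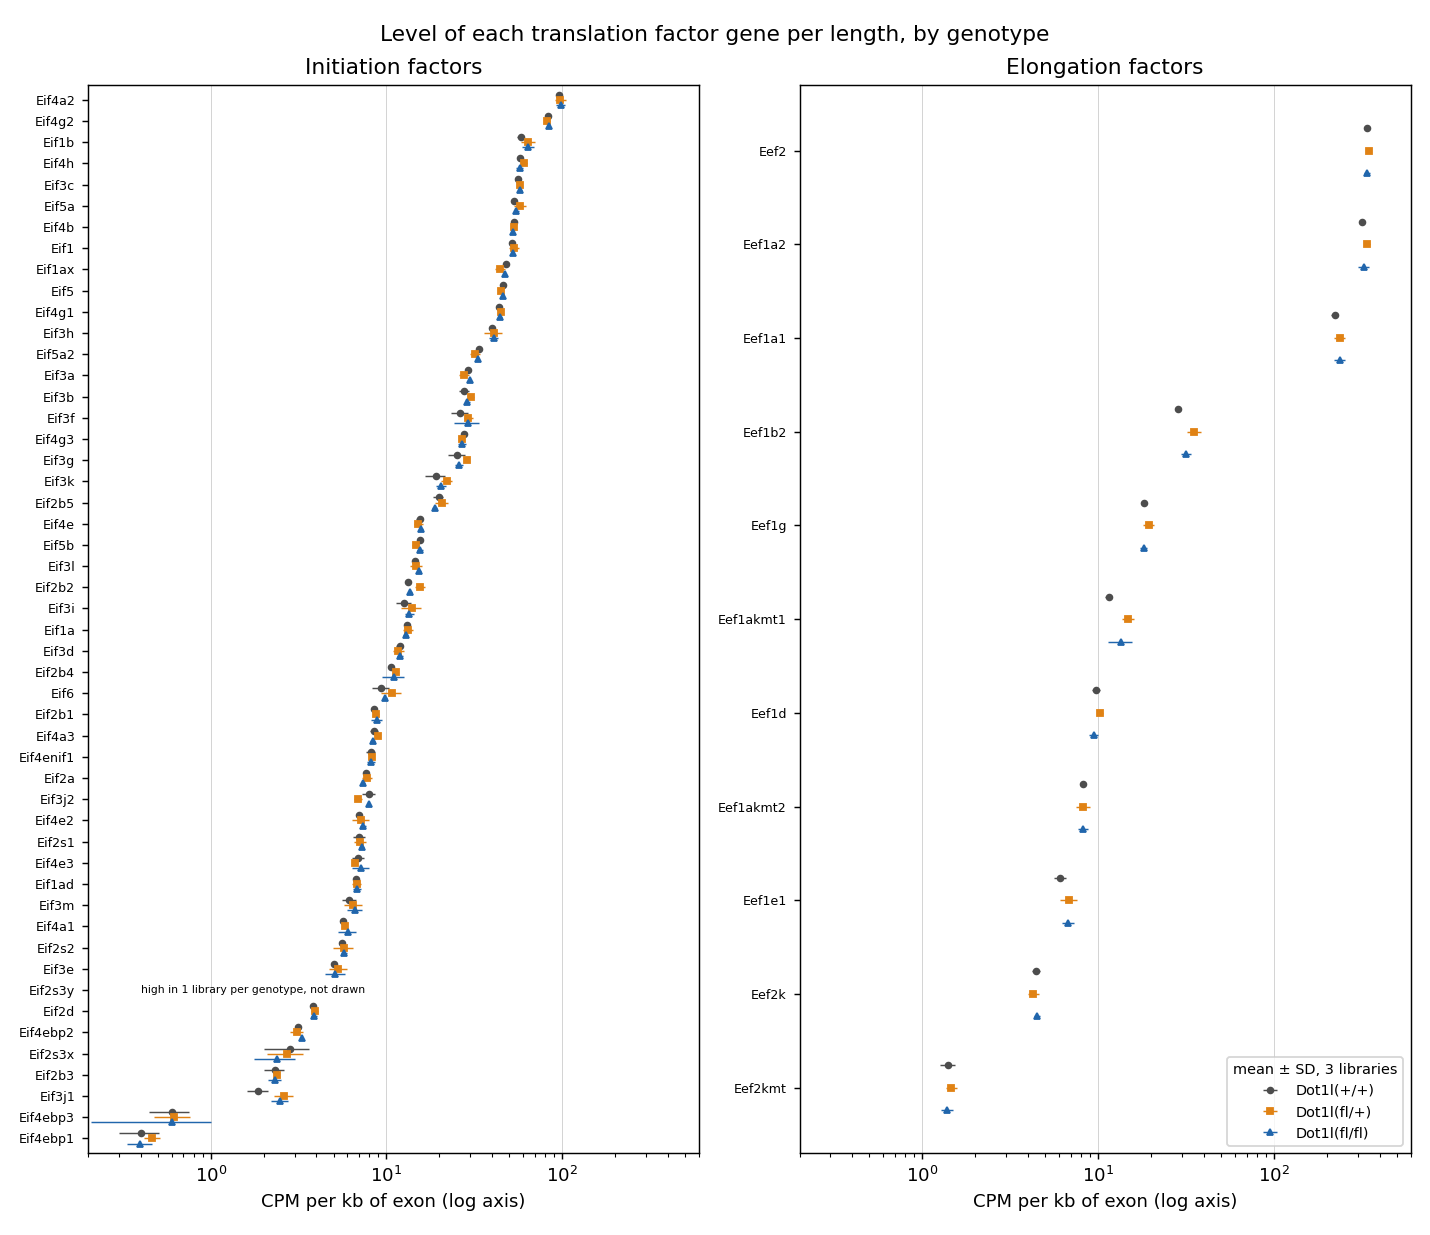
Level of each tested translation factor gene per length (CPM per kb of exon, log axis) by genotype, initiation factors left and elongation factors right, as the mean ± SD of 3 libraries. Eef2, Eef1a2 and Eef1a1 stand above every initiation factor, and the 3 genotypes lie close together for nearly all genes.

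A total of 61 of the 63 genes passed the filter on low counts, 50 initiation and 11 elongation factors. Eif4e1b, an oocyte form of eIF4E, had 1 count in all libraries together. Eef1akmt3, a lysine methyltransferase of eEF1A, had 23, with 0 to 6 in a library. A floor of 3 counts corresponds to 0.106 to 0.183 CPM in these libraries, and it covers counting error only.

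Several of these genes have a near copy elsewhere in the genome, and their counts have to be read with it. Eif4a1 and Eef1a1 are shown here because a pseudogene nearly matches each of them while their neuronal counterparts do not. The stretches are 75 bases of coding sequence in GRCm38 on the coding strand, and capitals mark bases that differ from the first sequence of each group. Eif4a1 is from chr11:69668644-69668718 on the minus strand in exon 6, the processed pseudogene Eif4a-ps4 from chr1:60704481-60704555 on the plus strand, and Eif4a2 from chr16:23110269-23110343 on the plus strand in exon 6. Eef1a1 is from chr9:78479666-78479740 on the minus strand in exon 5, the processed pseudogene Gm13456 from chr2:40556382-40556456 on the plus strand, and Eef1a2 from chr2:181150961-181151035 on the minus strand in exon 5.
Eif4a1: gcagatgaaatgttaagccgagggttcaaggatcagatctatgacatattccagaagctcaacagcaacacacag
Eif4a-ps4: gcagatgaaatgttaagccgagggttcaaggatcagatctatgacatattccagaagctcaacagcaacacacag
Eif4a2: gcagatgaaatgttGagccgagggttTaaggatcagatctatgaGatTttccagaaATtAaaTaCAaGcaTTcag
Eef1a1: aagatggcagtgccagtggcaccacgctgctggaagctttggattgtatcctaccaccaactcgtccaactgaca
Gm13456: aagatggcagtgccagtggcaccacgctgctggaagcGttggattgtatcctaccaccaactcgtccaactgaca
Eef1a2: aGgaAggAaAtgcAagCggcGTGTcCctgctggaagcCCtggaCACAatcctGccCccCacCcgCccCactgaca
Eif4a-ps4 has 0 differences in this stretch and is 99.9% identical to Eif4a1 over the coding sequence, whereas Eif4a2 has 13 differences here and is 78% identical. Gm13456 has 1 difference and Eef1a2 has 23, at 98.6% and 80.1% identity over the coding sequence.

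The count table gave Eif4a1 only 22.7 to 28.0 CPM and its pseudogene 79.2 to 90.2 CPM. A read from the shared part cannot be assigned to either from its sequence, and 64.9% of the 50-base words of Eif4a1 occur in Eif4a-ps4. The level of Eif4a1, rank 40 of the initiation factors at 5.85 CPM per kb, and the ratio of Eif4a2 to Eif4a1 per length, 16.9 ± 0.949 in the controls, therefore depend on how these reads were divided. Summed, Eif4a1 and Eif4a-ps4 were at 108.0 ± 5.14 CPM in the controls, 111.6 ± 2.26 CPM in Dot1l(fl/+) and 114.4 ± 5.32 CPM in Dot1l(fl/fl) (SD, n = 3), and the groups overlapped.

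The gamma subunit of eIF2 is encoded on both sex chromosomes. The stretches of its genes are shown because the X-linked gene shares its sequence with a pseudogene and the Y-linked gene does not, so the Y-linked one can be counted apart. They are Eif2s3x from chrX:94202841-94202915 on the minus strand in exon 7, the processed pseudogene Gm2223 from chrX:33506262-33506336 on the plus strand, and Eif2s3y from chrY:1016090-1016164 on the plus strand in exon 7, with differences from Eif2s3x in capitals.
Eif2s3x: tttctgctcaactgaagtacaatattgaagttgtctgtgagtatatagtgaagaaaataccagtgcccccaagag
Gm2223: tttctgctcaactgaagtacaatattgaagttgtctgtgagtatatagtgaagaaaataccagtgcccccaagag
Eif2s3y: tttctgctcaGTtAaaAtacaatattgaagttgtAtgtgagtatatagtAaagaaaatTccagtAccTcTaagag
Gm2223 has 0 differences here and Eif2s3y has 10. Eif2s3y was at 54.0, 54.6 and 60.1 CPM in the libraries numbered 1 of Dot1l(+/+), Dot1l(fl/+) and Dot1l(fl/fl), and at no more than 0.277 CPM in the other 6. Eif2s3x, with 6.52 to 13.6 CPM, received fewer counts than Gm2223, with 32.4 to 55.7 CPM. Their sum was 39.9 to 43.3 CPM in the libraries numbered 1 and 58.1 to 66.9 CPM in the others, so in each genotype the library with Y-linked counts was the lowest. Over the 9 libraries the genes most like Eif2s3y were the Y-linked Ddx3y (Pearson r = 0.998), Kdm5d (0.997) and Gm29650 (0.989), which describes these libraries and shares their split into 3 with and 6 without Y-linked counts.

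**Figure D2:**
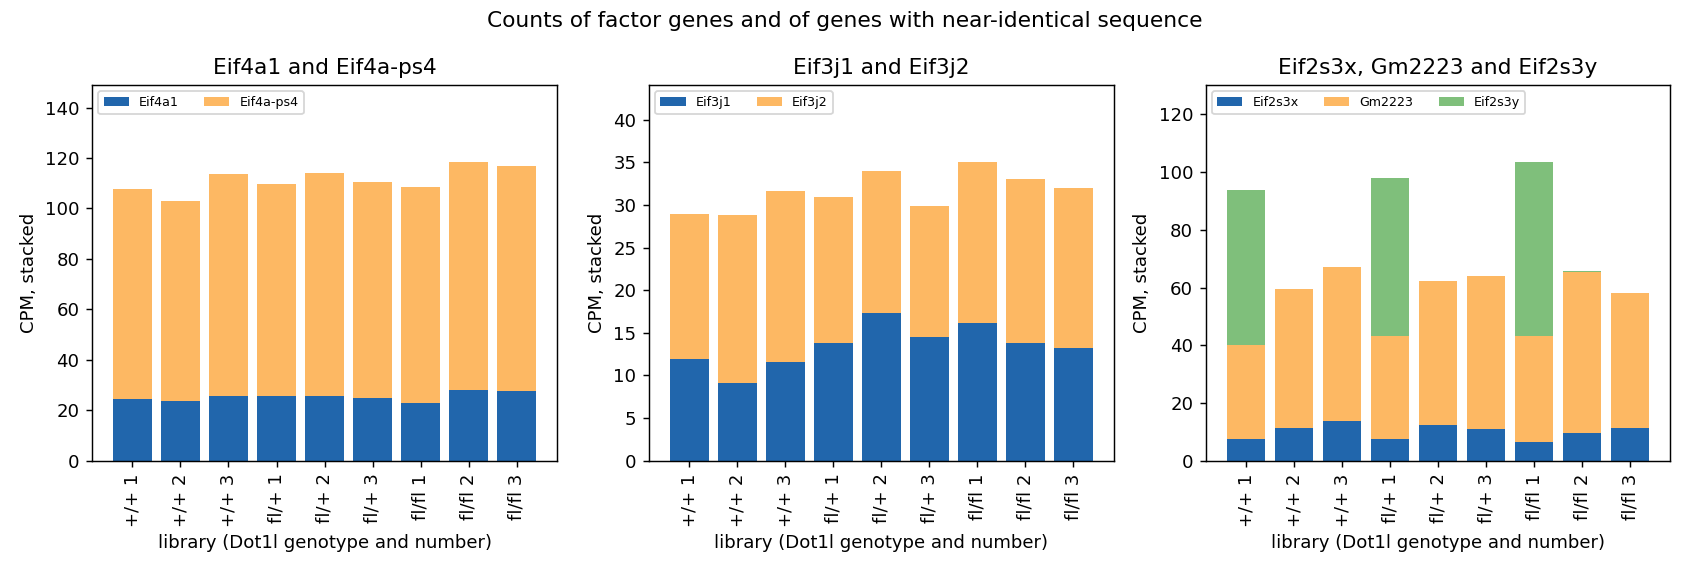
CPM of 3 factor genes stacked with their near-identical genes, 1 bar for each of the 9 libraries. Eif4a-ps4 takes more than Eif4a1 in every library, Eif3j1 and Eif3j2 sum to 28.8 to 35.0 CPM, and Eif2s3y stands at 54.0 to 60.1 CPM in the libraries numbered 1 and at most at 0.277 CPM in the others.

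In the Dot1l(fl/+) mice most initiation factors were measured slightly above the controls. Of 50 tested, 37 had a log2 fold change above 0 (74.0%), against 48.9% of all 17671 genes, and their median log2 fold change was 0.038 against -0.0034 for all genes. By edgeR's quasi-likelihood test 5 were higher and 1 was lower at an unadjusted p under 0.05, which is 12% of them, while 8.39% of all genes were called (4.3% higher and 4.09% lower). No factor passed after Benjamini-Hochberg adjustment over all genes, and nor did any other gene (0%), the lowest adjusted p of an initiation factor being 0.541 by the same test. DESeq2, which tested 62 of the factors, called 0 of them after adjustment (7 of all 28310 genes) and 7 at an unadjusted p under 0.05 (11.3%, beside 4.42% of all genes). Without Dot1l(fl/+) replicate 2 the initiation median was 0.013, and the factors of both steps above 0 numbered 36 of 61 instead of 46. In bulk tissue fewer cells of a type and less RNA per cell cannot be told apart, which holds for every difference given here.

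Of the 6 initiation factors called in Dot1l(fl/+), 5 encode subunits of eIF3, with 4 higher and 1 lower of 14 tested and a median log2 fold change of 0.081, beside 8.39% of all genes called. These 5 include Eif3j1 and Eif3j2, which share sequence, had opposite signs and were not called when summed. In Dot1l(fl/fl) 13 of the 14 eIF3 genes were above 0, beside 50.4% of all genes, with a median of 0.056, and 1 was called, beside 3.93% of all genes. All 5 subunits of eIF2B were above 0 in Dot1l(fl/+), beside 48.9% of all genes, with a median of 0.057 and 1 called. In Dot1l(fl/fl) 3 of the 5 were above 0, with a median of 0.044 and 0 called. The next values are for Dot1l(fl/+). The eIF4A helicases and their helpers (median 0.036), the eIF4G scaffolds (-0.007), the cap-binding proteins (-0.03), the inhibitors and transporter of eIF4E (0.036) and the 4 genes of eIF2 (0.028) held 0 called genes.

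**Figure D3:**
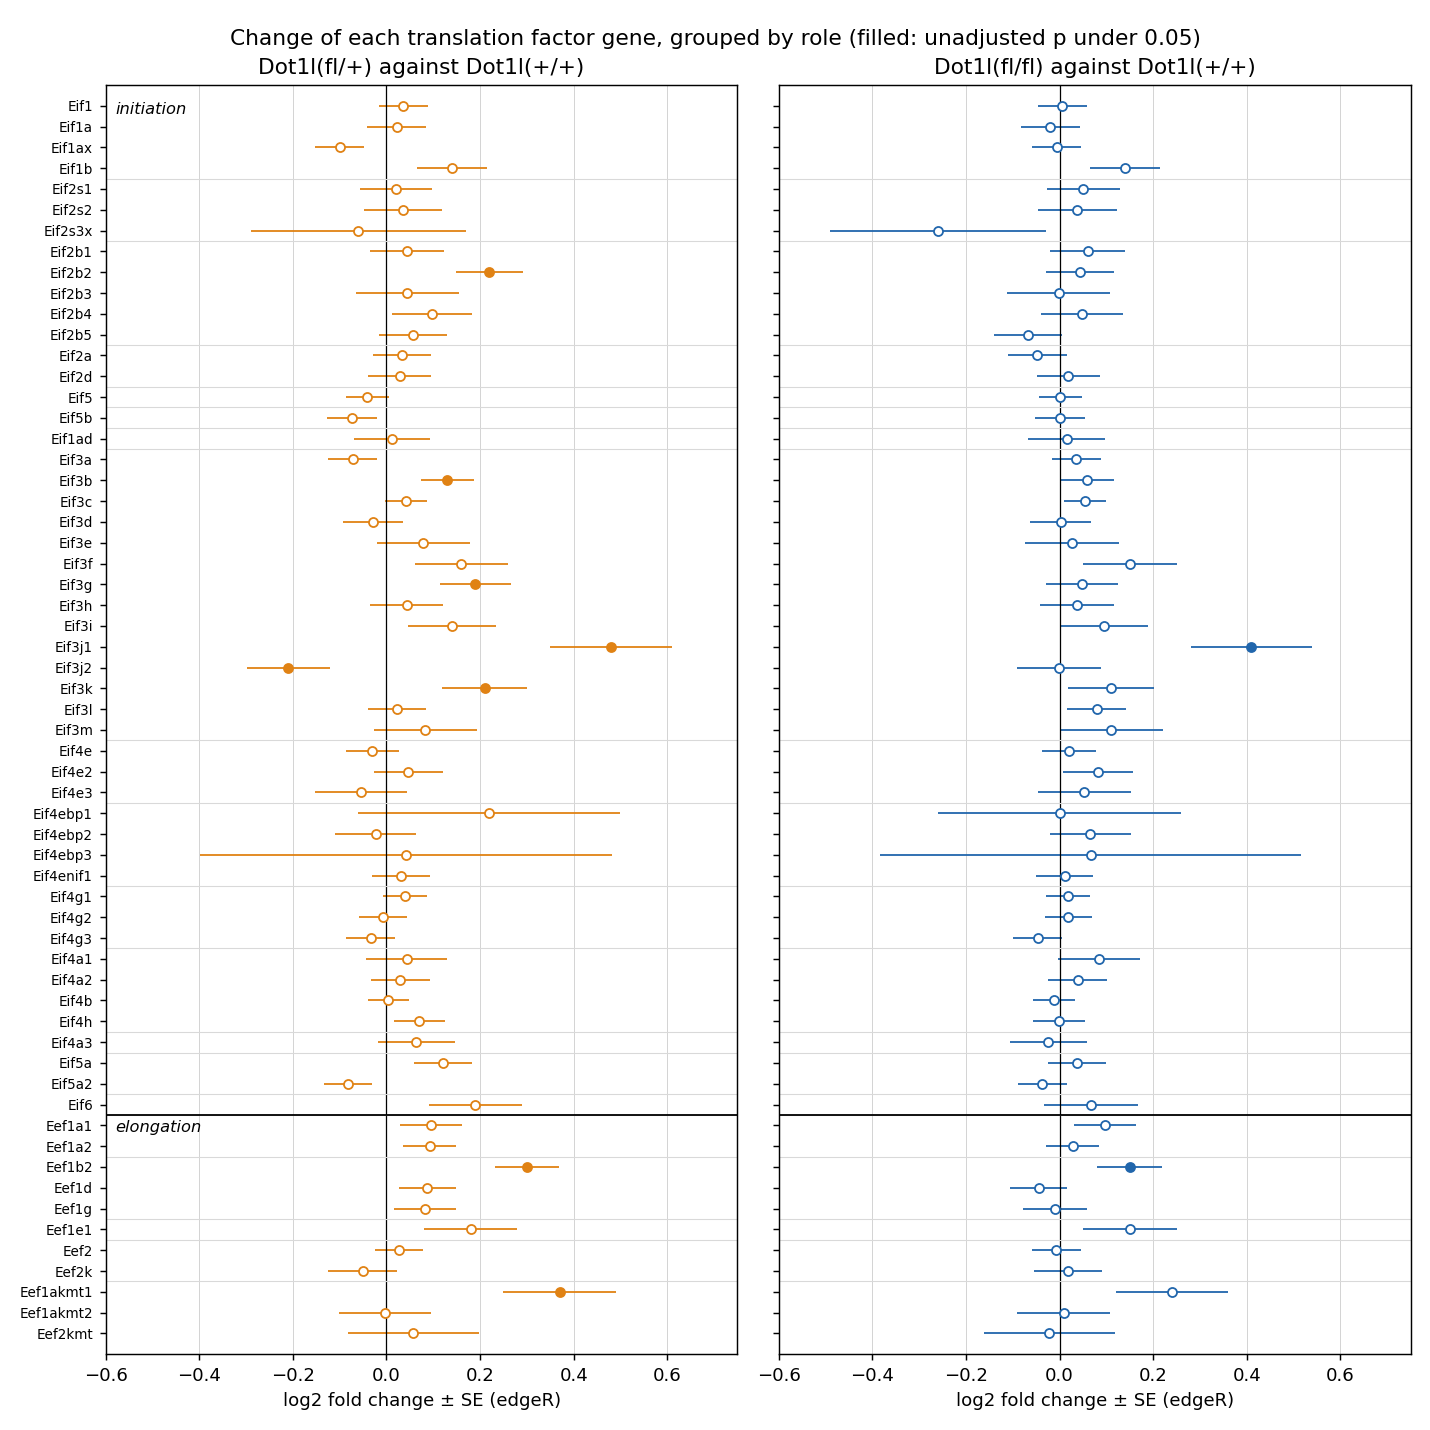
Log2 fold change ± SE by edgeR of 60 tested factor genes against the controls, grouped by role, for Dot1l(fl/+) left and Dot1l(fl/fl) right; Eif2s3y, high in only 1 library of each genotype, is not drawn. Filled points have an unadjusted p under 0.05, 8 on the left and 2 on the right, and most left-hand points lie right of the line at 0.

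A gene is named as called for an unadjusted p under 0.05 in edgeR's quasi-likelihood test. Eif2b2, at chr12:85219481-85226628 on the plus strand, encodes the beta subunit of eIF2B, the exchange factor that limits the supply of active eIF2. It was at 26.0, 25.3 and 24.1 CPM in the controls, 27.0, 30.0 and 30.6 CPM in Dot1l(fl/+), and 26.0, 25.2 and 26.4 CPM in Dot1l(fl/fl). Every Dot1l(fl/+) library was above every other library, and the controls and Dot1l(fl/fl) overlapped. Against the controls Dot1l(fl/+) had a log2 fold change of 0.22 (SE 0.072, edgeR adjusted p = 0.541), and the call at an unadjusted p under 0.05 held in 20 of 20 alternative analyses. Dot1l(fl/fl) was lower than Dot1l(fl/+) by a log2 fold change of -0.18 (edgeR adjusted p = 0.733). That call was lost with an offset for length and GC content, with or without the replicate block, and without Dot1l(fl/+) replicate 2 or 3 or Dot1l(fl/fl) replicate 1 or 2, where the log2 fold change came to between -0.24 and -0.12 over the alternatives. Eif2b5, the catalytic subunit, was not called, with log2 fold changes of 0.057 in Dot1l(fl/+) mice and -0.068 in Dot1l(fl/fl) mice.

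Of the eIF3 genes, Eif3g (chr9:20894349-20898623, minus strand) encodes an RNA-binding subunit. It was at 54.7, 51.0 and 44.1 CPM in the controls and 55.3, 59.0 and 56.2 CPM in Dot1l(fl/+), with no overlap (log2 fold change 0.19, SE 0.076, edgeR adjusted p = 0.55). Eif3b (chr5:140419328-140443360, plus strand) encodes a core scaffold subunit. It was at 96.8, 95.8 and 86.1 CPM in the controls and 98.4, 99.7 and 106.3 CPM in Dot1l(fl/+), again without overlap (0.13, SE 0.057, edgeR adjusted p = 0.575). Eif3k (chr7:28971372-28981864, minus strand) encodes an accessory subunit at the edge of the complex. It was at 56.4, 54.5 and 43.5 CPM in the controls and 55.3, 63.6 and 59.3 CPM in Dot1l(fl/+), and these ranges overlapped (0.21, SE 0.091, edgeR adjusted p = 0.573). All 3 genes were lowest in Dot1l(+/+) replicate 3, and without that library none of them was called and the initiation factors called in Dot1l(fl/+) numbered 2, while the share called of all genes was 5.45% instead of 8.39%. Eif3g and Eif3k were also not called without Dot1l(fl/+) replicate 2, nor Eif3k and Eif3b without Dot1l(fl/+) replicate 3. With an offset for length and GC content Eif3g and Eif3k lost the call, and Eif3b lost it in DESeq2, with the 2 groups alone, with a sex term, with the replicate block (also with the offset added) and without Dot1l(fl/fl) replicate 2. Over all alternatives their log2 fold changes were as low as 0.11 for Eif3g, 0.10 for Eif3k and 0.077 for Eif3b. Without Dot1l(fl/+) replicate 3 the called initiation factors numbered 3, when 5.65% of all genes were called, and without Dot1l(fl/+) replicate 1 they numbered 9, when 12.5% were. In Dot1l(fl/fl) none of the 3 was called. Eif3e, another subunit, had log2 fold changes of 0.079 and 0.027 in Dot1l(fl/+) and Dot1l(fl/fl) with no call.

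Eif3j encodes the loosely bound subunit that sits near the decoding site, and the mouse has 2 genes for it. Eif3j1 lies at chr2:122028546-122056598 on the plus strand, and Eif3j2 on chromosome 18. Eif3j1 was at 11.9, 9.15 and 11.6 CPM in the controls, 13.8, 17.3 and 14.5 CPM in Dot1l(fl/+), and 16.2, 13.8 and 13.2 CPM in Dot1l(fl/fl). All 6 floxed libraries were above all controls. Both differences were called, with log2 fold changes of 0.48 in Dot1l(fl/+) mice (SE 0.13, edgeR adjusted p = 0.541) and 0.41 in Dot1l(fl/fl) mice (SE 0.13, edgeR adjusted p = 0.999). Eif3j2 went the other way in Dot1l(fl/+), at 17.02, 19.67 and 20.02 CPM in the controls, 17.2, 16.6 and 15.4 CPM in Dot1l(fl/+), and 18.8, 19.2 and 18.7 CPM in Dot1l(fl/fl). The controls and Dot1l(fl/+) overlapped, with a log2 fold change of -0.21 (SE 0.089, edgeR adjusted p = 0.568), and 11 of 19 alternatives kept this call.

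The pair shares 39.4% of the 50-base words of Eif3j1 and 90.8% of those of Eif3j2. Summed, the 2 genes were at 28.9, 28.8 and 31.5 CPM in the controls, 31.0, 34.0 and 30.0 CPM in Dot1l(fl/+), and 35.0, 33.0 and 32.0 CPM in Dot1l(fl/fl). The sum was not called in Dot1l(fl/+) (log2 fold change 0.088, SE 0.073), where the ranges overlapped. In Dot1l(fl/fl) all libraries of the sum were above the controls, and the sum was called (0.16, SE 0.073, edgeR adjusted p = 1.0). In addition, 19.0% of the exon bases of Eif3j1 lie over Spg11 on the opposite strand, and whether the counting used strand is not given in the sources used here. The library kit marks strand.

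Other initiation factors had no unadjusted p under 0.05 in any comparison. Eif6, which keeps the large ribosomal subunit free, was at 28.0, 25.5 and 22.4 CPM in the controls and 24.7, 30.2 and 31.6 CPM in Dot1l(fl/+) (log2 fold change 0.19, SE 0.10, edgeR adjusted p = 0.631), and the ranges overlapped. Eif1b was 0.14 above the controls in both floxed genotypes on the log2 scale, with overlap. The initiation-named factor eIF5A, which carries hypusine and relieves stalled ribosomes, has 2 genes with opposite signs in Dot1l(fl/+), 0.12 for Eif5a and -0.082 for Eif5a2. The ratio of Eif5a2 to Eif5a per length was 0.61, 0.622 and 0.673 in the controls, 0.589, 0.555 and 0.516 in Dot1l(fl/+) mice, and 0.634, 0.575 and 0.599 in Dot1l(fl/fl) mice. The Dot1l(fl/+) ratios lay below all controls, and those of Dot1l(fl/fl) overlapped both.

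Genes at the centre of the cap complex and Eif2s1 of eIF2 differed little. Eif4e, the cap-binding protein, had log2 fold changes of -0.030 in Dot1l(fl/+) mice and 0.020 in Dot1l(fl/fl) mice, Eif4g1, the main scaffold, 0.039 and 0.017, and Eif4a2 0.029 and 0.039. Eif2s1, the alpha subunit of eIF2 that stress kinases phosphorylate, had 0.021 and 0.051. Eif2s3x had -0.060 and -0.26, each with an SE of 0.23, while the other 3 eIF2 genes were above 0 in both. Summed with Gm2223, Eif2s3x had 0.029 and -0.0017. Of the eIF4E-binding proteins Eif4ebp2, the main form in brain, had -0.023 and 0.066. Eif4ebp1 had 0.22 in Dot1l(fl/+) with an SE of 0.28, since its level was only 0.639 to 1.11 CPM.

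Among the elongation factors 9 of 11 lay above 0 in the Dot1l(fl/+) mice (81.8%), and the median of their log2 fold changes was 0.087. Being chosen by name, the 11 also include the kinase gene Eef2k, 3 methyltransferase genes and Eef1e1, of the tRNA synthetase complex. By edgeR's quasi-likelihood test 2 were higher and 0 lower at an unadjusted p under 0.05, or 18.2% of them, again beside 8.39% of all genes. Without Dot1l(fl/+) replicate 1 the number called was 4, beside 12.5% of all genes. In 3 of the 11 every Dot1l(fl/+) library was above every control, a pattern found in 6.84% of all genes. For the initiation factors this number was 5 of 50, and no factor of either step had every Dot1l(fl/+) library below every control, as 6.47% of all genes did.

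Eef1b2, at chr1:63176825-63180486 on the plus strand, encodes the subunit of eEF1B that exchanges GDP for GTP on eEF1A, and it had the smallest p of all the factors. It was at 73.1, 74.0 and 70.2 CPM in the controls, 81.1, 97.0 and 90.2 CPM in Dot1l(fl/+), and 76.7, 86.5 and 78.2 CPM in Dot1l(fl/fl). Every floxed library was above every control, with Dot1l(fl/fl) in between and overlapping Dot1l(fl/+). The means were 72.4 ± 2.00, 89.4 ± 7.99 and 80.5 ± 5.26 CPM (SD, n = 3). Both floxed genotypes were called against the controls, with log2 fold changes of 0.30 in Dot1l(fl/+) mice (SE 0.069, edgeR adjusted p = 0.54) and 0.15 in Dot1l(fl/fl) mice (SE 0.069, edgeR adjusted p = 0.999). Dot1l(fl/fl) was also called lower than Dot1l(fl/+), by a log2 fold change of -0.15 (edgeR adjusted p = 0.762). This held in 12 of 20 alternatives, being lost with the 2 groups alone, with a sex term and in 6 fits without 1 library, with log2 fold changes of -0.22 to -0.089. The call in Dot1l(fl/+) held in 20 of 20 alternatives, with log2 fold changes of 0.24 to 0.38 and adjusted p-values by these tests of 0.00101 to 0.867, and that in Dot1l(fl/fl) in 13 of 20. The latter was lost in DESeq2, with a minimum of 10 counts in every library, and without any 1 of the 3 controls, Dot1l(fl/+) replicate 3 or Dot1l(fl/fl) replicate 2, where the log2 fold change was as low as 0.099 over the alternatives. Among the alternatives run, it and Eif3j1 passed after adjustment in edgeR only when no filter on low counts was applied, and then 251 genes passed in all. Eef1b2 shares 5.98% of its 50-base words with another gene.

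Eef1akmt1, at chr14:57549597-57571612 on the minus strand, encodes a lysine methyltransferase of eEF1A. It was at 11.1, 11.3 and 10.3 CPM in the controls, 13.6, 15.3 and 13.2 CPM in Dot1l(fl/+), and 12.6, 14.9 and 10.9 CPM in Dot1l(fl/fl). Dot1l(fl/+) did not overlap the controls, and Dot1l(fl/fl) did. It was called in Dot1l(fl/+) with a log2 fold change of 0.37 (SE 0.12, edgeR adjusted p = 0.541), which held in 20 of 20 alternatives, and not called in Dot1l(fl/fl), at 0.24 (SE 0.12).

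**Figure D4:**
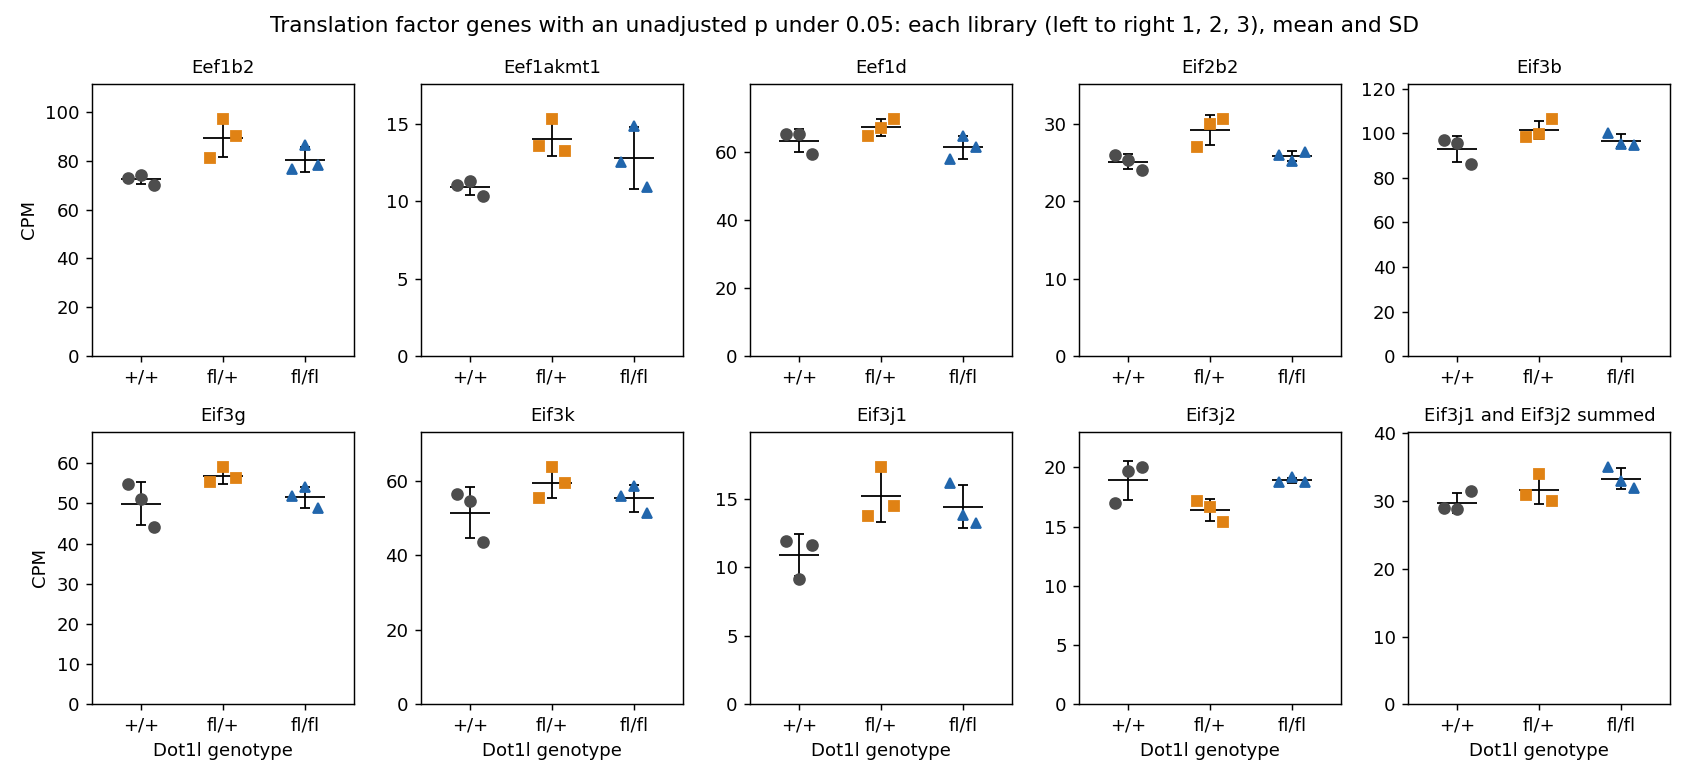
CPM of the 9 factor genes with an unadjusted p under 0.05 in any comparison, and of Eif3j1 and Eif3j2 summed, for each library with the mean and SD of 3. Eef1b2, Eif2b2 and Eef1akmt1 lie higher in every Dot1l(fl/+) library than in every control, and the summed Eif3j genes overlap between these groups.

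The other subunits of eEF1B had smaller values. Eef1d, the delta subunit, was at 65.2, 65.1 and 59.4 CPM in the controls, 64.7, 67.0 and 69.5 CPM in Dot1l(fl/+), and 58.0, 64.5 and 61.3 CPM in Dot1l(fl/fl). It was called only between the floxed genotypes (log2 fold change -0.13, SE 0.061, edgeR adjusted p = 0.768), and 9 of 20 alternatives kept the call. Eef1g had log2 fold changes of 0.082 in Dot1l(fl/+) mice and -0.01 in Dot1l(fl/fl) mice against the controls, and of -0.093 between the floxed genotypes, none of them called. Its pseudogene Gm4366 holds 58.4% of its 50-base words, and their sum was lower in every Dot1l(fl/fl) library than in every Dot1l(fl/+) library (-0.14, called, edgeR adjusted p = 0.731).

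The abundant elongation factors were not called. Eef1a2 was at 673.8, 673.1 and 648.7 CPM in the controls, 683.4, 723.6 and 719.5 CPM in Dot1l(fl/+), and 719.5, 684.5 and 630.7 CPM in Dot1l(fl/fl). Dot1l(fl/+) lay just above the controls without overlap (log2 fold change 0.092, SE 0.057, edgeR adjusted p = 0.692). Eef1a1 had 0.095 and 0.097 in Dot1l(fl/+) and Dot1l(fl/fl), with overlap. The ratio of Eef1a2 to Eef1a1 per length was 1.44 ± 0.0902 in the controls, 1.44 ± 0.0618 in Dot1l(fl/+) mice and 1.37 ± 0.0176 in Dot1l(fl/fl) mice (SD, n = 3). Like the level of Eef1a1, this ratio depends on how reads shared with Gm13456 were divided and on the length used. Eef2 had log2 fold changes of 0.027 and -0.007, and Eef2k, the kinase that slows elongation by phosphorylating eEF2, -0.051 and 0.018. The genes whose level followed Eef1a2 most closely over the 9 libraries were Ckap2l (Pearson r = 0.986), Nt5c (0.983) and Aes (0.967), and such correlations share depth and composition of the same libraries.

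In the Dot1l(fl/fl) mice 2 of 61 factors were called (3.28%) and in Dot1l(fl/+) 8 (13.1%), and of all genes 3.93% and 8.39% were, while the difference between the floxed genotypes was tested only gene by gene. Of the initiation factors 38 of 50 were above 0, beside 50.4% of all genes, with a median log2 fold change of 0.037 against 0.0009 for all genes. Only Eif3j1 was called, 1 of 50 (2.0%), while 3.93% of all genes were (2.21% higher and 1.72% lower). Of the elongation factors 7 of 11 were above 0, with a median of 0.018, and 1 was called, Eef1b2. By edgeR's quasi-likelihood test 0 factors passed after adjustment (0% of all genes), the lowest adjusted p of a factor being 0.999, and DESeq2 called 0 after adjustment (3 of all 28310 genes) and 1 at an unadjusted p under 0.05 (1.61%, beside 1.74% of all genes). Without Dot1l(fl/fl) replicate 3 the factors called by edgeR numbered 6 (9.84%, beside 5.26%). Of the 61 factors 3 had every Dot1l(fl/fl) library above every control and 1 had every one below, patterns found in 5.03% and 5.25% of all genes. Without Dot1l(+/+) replicate 3 the initiation median was 0.013, and the elongation median was 0.0047 without Dot1l(fl/fl) replicate 1 and 0.058 without Dot1l(fl/fl) replicate 3. This comparison shares its controls with that of Dot1l(fl/+).

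Dot1l(fl/fl) was also compared directly with Dot1l(fl/+). Of the initiation factors 24 of 50 were above 0, beside 50.5% of all genes, with a median log2 fold change of -0.0068 that became 0.019 without Dot1l(fl/+) replicate 2, and Eif3j2 was higher (0.21, edgeR adjusted p = 0.745) and Eif2b2 lower. The call of Eif3j2 held in 11 of 19 alternatives, and with its near-identical copy Eif3j1 summed to it the log2 fold change was 0.076 (SE 0.073) with overlapping groups and no call. Of the elongation factors 3 of 11 were above 0, with a median of -0.064, and Eef1b2 and Eef1d were lower. In all 4 of 61 were called (6.56%), beside 6.48% of all genes (3.6% higher and 2.87% lower), with 0 after adjustment by edgeR (0% of all genes). DESeq2 called 0 of them after adjustment (11 of all 28310 genes) and 2 at an unadjusted p under 0.05 (3.23%, beside 3.31%). None was called by edgeR without Dot1l(fl/+) replicate 3 or without Dot1l(fl/fl) replicate 1, when 4.9% and 5.37% of all genes were, and 7 were without Dot1l(fl/+) replicate 1, when 9.37% were. With a sex term, or without Dot1l(+/+) replicate 1 or 2 or Dot1l(fl/fl) replicate 2 or 3, the number was 2 (3.28%), beside 5.29% to 6.36% of all genes.

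The elongation factors were also summarised by library. The median over 11 genes of the deviation from the 9-library mean of log2 CPM was -0.073, -0.022 and -0.056 in the controls, 0.0076, 0.1 and 0.08 in Dot1l(fl/+) mice, and 0.044, 0.017 and -0.057 in Dot1l(fl/fl) mice. By this measure all Dot1l(fl/+) libraries lay above all controls, replicate 1 the least, and Dot1l(fl/fl) spanned both. By the summed level of the 11 genes Dot1l(fl/+) replicate 1, at 2637 CPM, lay within the controls, at 2587 to 2641 CPM, and replicates 2 and 3, at 2803 and 2800 CPM, above them. For the initiation factors the medians were -0.0084, 0.0023 and -0.044 in the controls, -0.0073, 0.055 and -0.0058 in Dot1l(fl/+) mice, and 0.025, 0.0067 and -0.0071 in Dot1l(fl/fl) mice, and all groups overlapped.

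Gene length moved with these differences. In Dot1l(fl/+) the 30 shorter factors, with a median exon length of 2523 bases, had a median log2 fold change of 0.087 and 27 above 0, and the 31 longer ones, with 6008 bases, had 0.022 and 19 above 0. Across the 61 factors the Pearson r of log2 fold change with log2 length was -0.379, and across all 17612 genes with a length it was -0.212, where genes share their libraries and are not independent. With an offset for length and GC content in the fit the median of the factors was 0.055, against 0.01 for all genes, with 47 above 0 and 9 called (14.8%, beside 7.05% of all genes in that fit), while Eif3g, Eif3k and Eif3j2 lost their calls. The part of length in the difference between initiation and elongation factors was not tested.

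**Figure D5:**
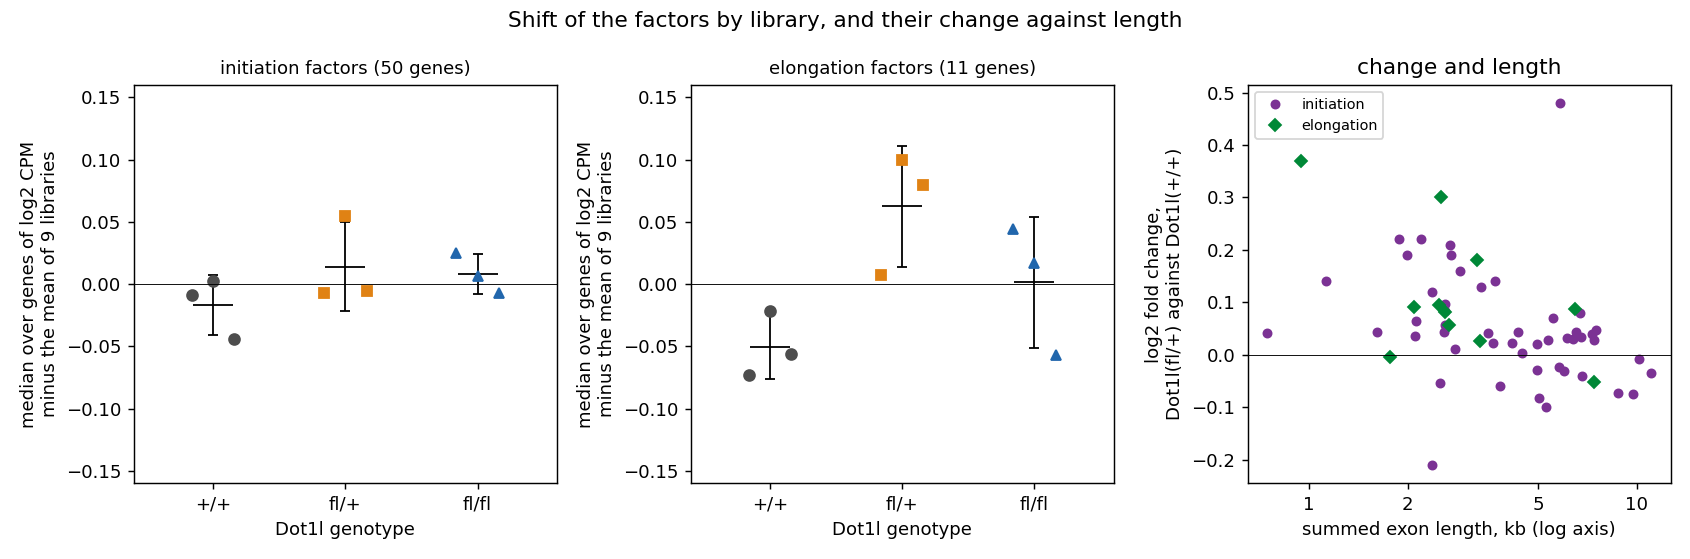
Left and centre, for each library the median over initiation or elongation factors of log2 CPM minus the mean of the 9 libraries, with mean and SD by genotype; right, log2 fold change in Dot1l(fl/+) against summed exon length of each factor (log axis). By median deviation the elongation factors lie higher in the 3 Dot1l(fl/+) libraries than in the controls, and the shorter factors lie higher than the longer.

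The genes that act on these factors had a median near that of all genes in Dot1l(fl/+). The lists held 61 genes of the eIF2 kinases and their targets, the mTOR pathway, cap-complex partners, termination and the enzymes of hypusine and diphthamide. In Dot1l(fl/+) 28 of 61 were above 0 (45.9%, beside 48.9% of all genes) with a median of -0.0028, and 2 were called higher and 1 lower (4.92%), beside 8.39% of all genes. They were Pelo, which rescues stalled ribosomes (0.23, edgeR adjusted p = 0.541), Asns, a target of the eIF2 stress response (0.14, edgeR adjusted p = 0.572), and Rictor, a subunit of the second mTOR complex (-0.18, edgeR adjusted p = 0.541). Pelo was at 11.4, 11.04 and 11.61 CPM in the controls and 13.87, 13.21 and 12.97 CPM in Dot1l(fl/+), without overlap. In Dot1l(fl/fl) only Ncbp1, of the nuclear cap-binding complex, was called (0.16, edgeR adjusted p = 0.999), 1.64% of the list beside 3.93% of all genes. Between the floxed genotypes Mknk1, an eIF4E kinase (0.15, edgeR adjusted p = 0.745), and Fmr1, a translational repressor (0.11, edgeR adjusted p = 0.734), were higher and Dohh, an enzyme of hypusine formation (-0.18, edgeR adjusted p = 0.733), was lower in Dot1l(fl/fl), 4.92% of the list beside 6.48% of all genes. The 4 kinases of eIF2 were not called, with log2 fold changes in Dot1l(fl/+) of -0.045 for Eif2ak1, -0.16 for Eif2ak2, -0.070 for Eif2ak3 and 0.051 for Eif2ak4.

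Markers of the cells in the tissue also moved with genotype. The 8 dopamine neuron markers summed to 408.9 to 462.1 CPM in the controls, 303.1 to 407.2 CPM in Dot1l(fl/+) and 284.5 to 301.6 CPM in Dot1l(fl/fl), and by edgeR 3 of them in Dot1l(fl/+) mice and 7 in Dot1l(fl/fl) mice were lower at an unadjusted p under 0.05, as were 4.09% and 1.72% of all genes. Between the floxed genotypes 5 of the 8 were called lower in Dot1l(fl/fl), beside 2.87% of all genes. Of the 8 oligodendrocyte markers 3 were called higher in Dot1l(fl/+), as were 4.3% of all genes, while their sum overlapped, at 10190 to 11240 CPM in the controls and 10350 to 11700 CPM in Dot1l(fl/+). In Dot1l(fl/fl) against Dot1l(fl/+) 4 of them were called lower, beside 2.87% of all genes, with 7 of 8 below 0 and a median log2 fold change of -0.13. The 7 microglial markers summed to 231.0 to 246.6 CPM in the controls, 229.2 to 270.4 CPM in Dot1l(fl/+) and 256.0 to 277.4 CPM in Dot1l(fl/fl), where 2 of them were called higher, beside 2.21% of all genes. Of the 7 astrocyte markers 1, Aldh1l1, was called higher in Dot1l(fl/+) (log2 fold change 0.13), beside 4.3% of all genes. Its libraries all lay above every control, as in 6.84% of all genes. The list as a whole had 3 above and 4 below 0 there, with a median log2 fold change of -0.017. The sums of astrocyte and blood vessel markers overlapped in all groups. The part of these cells in the values of the factors was not tested.

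The promoters of the called genes were searched for 4 motifs on both strands, in RefSeq promoters of GRCm38.p6. Promoters were found for 47 of the 63 factors. CCGGAAG, a core of the ETS-family site, was in 16 of them (34%) and in 13.4% of the promoters of 16387 protein-coding genes. CACGTG, the E-box, was in 25.5% against 9.21%, AAGATGGC, a YY1 motif, in 12.8% against 3.66%, and CCAAT in 29.8% against 42%. Of the 6 called genes with a promoter 3 held CCGGAAG, 1 held CACGTG (Eif3k), 0 held AAGATGGC and 2 held CCAAT (Eif2b2 and Eif3k). For the 3 with CCGGAAG the stretches around their start sites are given with this motif in capitals, from 70 bases before to 24 after the start. They are Eef1b2 at chr1:63176761-63176854 on the plus strand, Eif2b2 at chr12:85219411-85219504 on the plus strand and Eif3g at chr9:20898567-20898660 on the minus strand.
Eef1b2 promoter: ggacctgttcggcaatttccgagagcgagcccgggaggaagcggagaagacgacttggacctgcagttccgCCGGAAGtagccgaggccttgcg
Eif2b2 promoter: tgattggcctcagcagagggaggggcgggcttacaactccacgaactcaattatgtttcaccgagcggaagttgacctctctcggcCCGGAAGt
Eif3g promoter: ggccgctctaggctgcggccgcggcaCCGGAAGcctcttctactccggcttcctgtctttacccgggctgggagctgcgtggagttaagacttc
The motif began at position 2 from the start in Eef1b2, 17 in Eif2b2 and -44 in Eif3g. A match describes the letters of this window, and no match says only that these letters are not in it.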

How the data were processed

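The authors deposited a table of raw read counts per gene for 9 libraries, keyed by Ensembl identifier, made with a strand-marking kit and mapped to GRCm38. The submitters' processing notes name bcl2fastq 2.17, Trimmomatic 0.30, DESeq2 1.10.1 and GRCm38.p4, and the aligner, the counter and the annotation release are not given in the sources used here. Deposited tables of the authors' own comparisons hold log2 fold changes and p-values, and were not used. The series design text speaks of sorted embryonic cells, whereas the sample labels give dissections at 180 days, which were followed.

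Counts were fitted in R 4.3.3 with edgeR 4.0.16 on all 9 libraries (filterByExpr, TMM factors, quasi-likelihood test with genotype as the only term, Benjamini-Hochberg adjustment over all genes tested), after a check on simulated counts. A gene was called at an unadjusted p under 0.05. The biological coefficient of variation was 8.81%. CPM were divided by TMM-scaled library sizes, and lengths are the summed exons of GENCODE M21. Replicates are pools of mice, and p-values measure the spread between pools. Named genes were the factors called in any comparison, the 5 most abundant per length of each step, a fixed set of core factors, the called genes of the pathway lists with the eIF2 kinases, and the 3 genes most like Eef1a2 and Eif2s3y. The genes and lists were chosen with earlier results of these data known. Alternatives were DESeq2 1.42.0, its size factors, other filters, 2 groups alone, the replicate number as a block, an offset for length and GC content, a sex term, and leaving out each library. Added after the data were seen were summing near-identical genes (those holding 20% or more of the 50-base words of a factor) and using the libraries numbered 2 and 3 alone.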

Additional observations from a re-analysis of the deposited data

How the results depend on the processing

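Most counts and medians of the initiation and elongation factors moved little, and none of the results changed sign other than as given here. With the libraries numbered 2 and 3 alone, an alternative chosen after seeing the data, 10 initiation factors were called in Dot1l(fl/+) (9.26% of all genes were), the elongation median there was 0.13, and between the floxed genotypes the initiation and elongation medians were -0.04 and -0.12 with 1 elongation factor called (6.24% of all genes). In Dot1l(fl/fl) against the controls 2 initiation factors were called with the 2 groups alone (5.57% of all genes), 2 with the length and GC offset and the replicate block (4.23%), and 4 without a filter on low counts (4.27%). There the elongation count was 0 with a minimum of 10 counts in every library (3.74%) and 0 in DESeq2 (1.74%). Between the floxed genotypes the initiation count was 1 in DESeq2 (3.31%) and 1 with near-identical genes summed (6.47%, also chosen after seeing the data). The elongation count there was 0 with the 2 groups alone (5.25%), 1 in DESeq2 and 0 with a sex term (6.36%). The cause of these changes was not tested.

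With the replicate number as a block, the elongation count was 2 in Dot1l(fl/fl) (4.43% of all genes) and 1 between the floxed genotypes (7.12%), and the block moved no other count of these lists by more than 1.5 times. Eif3b in Dot1l(fl/+) and Eef1d between the floxed genotypes were not called with it. The study pooled matched litters but does not say that a number marks a match. Same-numbered libraries correlated at 0.0222 to 0.317, those numbered 1 at 0.289 to 0.317, and differently numbered ones at -0.267 to 0.108. Not every library correlated best with its own number, and no pairing was assumed in the main fit.

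Leaving out 1 library at a time gave initiation counts of 2 to 9 in Dot1l(fl/+), 1 to 3 in Dot1l(fl/fl) and 0 to 5 between the floxed genotypes, and elongation counts of 2 to 4, 0 to 3 and 0 to 2, while 5.45% to 12.5%, 2.13% to 5.26% and 4.9% to 9.79% of all genes were called. The initiation medians were 0.013 to 0.056, 0.013 to 0.05 and -0.027 to 0.019, the last turning above 0 without Dot1l(fl/+) replicate 2, and the elongation medians 0.071 to 0.11, 0.0047 to 0.058 and -0.095 to -0.03.

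With 3 pools a group no factor passed after adjustment, except Eef1b2 and Eif3j1 in the fit without a filter. The floxed cells are a part of the tissue, and the counts of genes with near-identical copies depend on how shared reads were assigned.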
